A study of Mus musculus with 2 samples.

Results

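The 43 genes described here encode proteins that license replication origins, build and drive the replication fork, and supply its nucleotides. They were taken as a named list from the 22711 genes of each file, and all 43 symbols were present. The 2 libraries came from 2 cultured immortal lines of mouse embryonic fibroblasts, 1 library per line, prepared by Smart-seq2 from polyadenylated RNA. Both lines are hybrids of C57BL/6N (B6) and PWK/PhJ (PWK), written PWK/PhJ X C57BL/6N for the line titled B6-Xi and C57BL/6N X PWK/PhJ for the line titled PWK-Xi. The titles name the strain whose X chromosome is inactive (Xi), B6 in the one line and PWK in the other. Beyond this the labels give the 2 lines the same culture and no treatment, and they state neither the number of embryos nor of clones behind a line. With 1 library each, every difference below is between 2 libraries and has no replicate check, and no p-value was computed.

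Before S phase, the origin recognition complex with Cdc6 and Cdt1 loads rings of Mcm2 to Mcm7 onto DNA, which licenses each origin once. Cdc45 and the GINS complex then turn a loaded ring into an active helicase. Behind it, primase and the DNA polymerases copy the strands, the clamp loader places the sliding clamp Pcna, and Fen1 and Lig1 join the fragments of the lagging strand. Many of these genes are transcribed as cells enter S phase, under the control of E2F factors.

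Values are FPKM, fragments normalised to transcript length and sequencing depth, which the authors gave for each allele. A gene's level is the sum of its alleles, and its B6 share is the B6 part of that sum. Of the 43 genes, 39 were above 0 in both lines. Mcm7 (a subunit of the helicase ring), Cdc45, Rpa2 (a subunit of the single-strand binding protein) and Pold2 (a subunit of DNA polymerase delta) were listed at 0 for both alleles in both lines. Their partner subunits were measured, and dividing cells need all 4, so a listed 0 is not read here as absence. Over all genes, 42.2% were listed at 0 in both lines, silent genes included. None of the 35 members with at least 5 FPKM in PWK-Xi was listed at 0 in B6-Xi, against 4.76% of the 5065 genes at that level.

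The files as a whole held 10127 genes above 0 in B6-Xi and 12907 in PWK-Xi, and the depth behind a value is unknown. Of 16 fibroblast markers, 14 were above 0 in B6-Xi and 15 in PWK-Xi, with Vim listed at 0 in both and Lum in B6-Xi. Their summed level was 13949.5 FPKM in B6-Xi against 3258 FPKM in PWK-Xi, of which S100a4 made 13006 and 2321 FPKM. Without S100a4 the sums were 943.7 and 937.7 FPKM, and the markers were mixed: of 13 compared on the scale defined below, 3 were at least 2-fold higher in PWK-Xi and 6 at least 2-fold lower, with Dcn going from 79.1 to 456.4 FPKM and Sparc from 579.5 to 252.4 FPKM. Epithelial markers (7) and endothelial markers (5) reached at most 0.461 FPKM in either line, and Epcam was listed at 0 in both. Of 5 immune markers only Cd68, at 1.39 and 3.25 FPKM, exceeded 1 FPKM, and of 5 pluripotency markers Pou5f1 (15.1 FPKM) and Sox2 (2.19 FPKM) did so in PWK-Xi, while all 5 were listed at 0 in B6-Xi. The part of these cell-type markers in the differences below was not tested.

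The genes were expressed at moderate levels in both lines and were, for the most part, modestly higher in PWK-Xi. These levels, and those by complex below, are not set against the median gene. How reads without a strain difference were assigned is not stated, so comparisons between genes within a line are of listed FPKM and are uncertain. On the same footing 60.4% of all genes compared below were higher in PWK-Xi, and 31 of the 35 members among them. Over the 39 measured genes the median level was 12.2 FPKM in B6-Xi against 16.7 FPKM in PWK-Xi, against 5.64 and 6.13 FPKM over all genes with at least 1 FPKM. Pcna was the most abundant in both lines and Mcm10 the least. Levels in one line followed those in the other, with a Pearson r of 0.91 for log2 FPKM over these 39 genes and 0.82 over all 5241 genes compared below. This is a description across genes, which share the libraries and are not replicates.

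**Figure D1:**
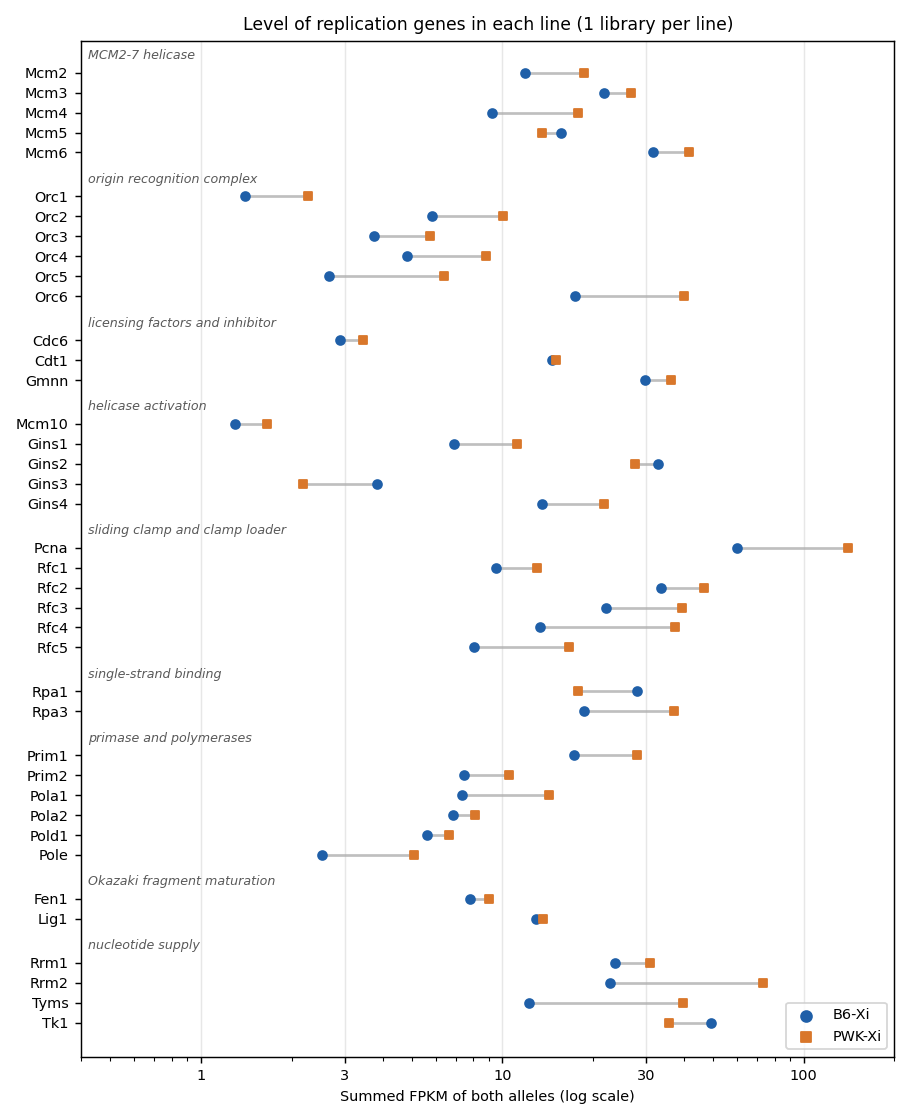
Level of each of the 39 measured genes in B6-Xi (circles) and PWK-Xi (squares), as summed FPKM of both alleles on a log axis, ordered by role; each point is 1 library. 34 genes had the higher value in PWK-Xi and 5 in B6-Xi, and Pcna, Rrm2, Rfc4 and Tyms show wide gaps between the lines. Without centring, 60.4% of all 5241 genes compared in the text were higher in PWK-Xi, and 31 of the 35 members among them.

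The helicase ring had all of its 5 measured subunits within a 3.42-fold range of levels in B6-Xi and a 3.07-fold range in PWK-Xi. Mcm6 was the highest, at 31.6 FPKM in B6-Xi against 41.6 FPKM in PWK-Xi, followed by Mcm3 at 21.7 and 26.8 FPKM. Mcm2 had 11.9 and 18.6 FPKM. Mcm4 had the lowest level of the ring in B6-Xi, 9.24 FPKM, and nearly as much as Mcm2 in PWK-Xi, 17.9 FPKM. Mcm5 went the other way, with 15.6 FPKM in B6-Xi against 13.6 FPKM in PWK-Xi. So 4 of the 5 were higher in PWK-Xi, and the order of Mcm2, Mcm4 and Mcm5 differed between the lines.

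The origin recognition complex marks origins and recruits the ring. Its 6 subunits were uneven, with a 12.4-fold range in B6-Xi and a 17.7-fold range in PWK-Xi, and each of them was higher in PWK-Xi. Orc6 stood above the rest, at 17.4 and 40.0 FPKM. Orc1, the subunit whose protein rises and falls with the cell cycle in mammalian cells, had 1.40 and 2.26 FPKM. The other 4 lay in between: Orc2 had 5.85 and 10.0 FPKM, Orc3 3.76 and 5.77 FPKM, Orc4 4.84 and 8.85 FPKM, and Orc5 2.66 and 6.41 FPKM.

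Among the licensing factors, Cdc6, an ATPase that acts with the origin recognition complex, was low, at 2.90 FPKM in B6-Xi against 3.44 FPKM in PWK-Xi. Cdt1, which brings the ring to the origin, had 14.6 and 15.1 FPKM. Geminin (Gmnn), the inhibitor that binds Cdt1 and blocks a second loading, was more abundant than Cdt1 in both lines, at 29.8 and 36.3 FPKM. The lines were close to each other for all 3.

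The helicase activators were also uneven within 1 complex. Of the 4 GINS subunits, which occur once each in the complex, Gins2 had 32.8 and 27.5 FPKM, whereas Gins3 had 3.83 and 2.18 FPKM. Gins4 had 13.6 and 21.7 FPKM, and Gins1 6.90 and 11.2 FPKM. Gins2 and Gins3 were thus higher in B6-Xi, and Gins1 and Gins4 in PWK-Xi. Mcm10, a scaffold needed to start the helicase, was at 1.30 and 1.65 FPKM.

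The sliding clamp and its loader were higher in PWK-Xi throughout. Pcna, the ring that tethers polymerases to DNA, had 60.0 FPKM in B6-Xi against 139.9 FPKM in PWK-Xi. Of the loader, the large subunit Rfc1 had 9.53 and 13.1 FPKM. Its small subunits were Rfc2 at 33.7 and 46.5 FPKM, Rfc3 at 22.1 and 39.6 FPKM, Rfc4 at 13.4 and 37.4 FPKM, and Rfc5 at 8.06 and 16.7 FPKM. Rfc2 was the most and Rfc5 the least abundant small subunit in both lines, although the small subunits occur once each in the complex.

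The single-strand binding protein, which coats unwound DNA, had its 2 measured subunits in opposite order in the lines. Rpa1 had 28.0 FPKM in B6-Xi against 17.8 FPKM in PWK-Xi, and Rpa3 had 18.7 and 37.0 FPKM.

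The 6 measured primase and polymerase genes were higher in PWK-Xi, from 1.18-fold for Pola2 to 2.03-fold for Pole. Most genes of the files were higher there too (60.4% of those compared). On the log2 scale defined below, relative to the median gene, Pola2 was at 0.01 and Pold1 at 0.02. The primase catalytic subunit Prim1 had 17.3 and 27.9 FPKM and its partner Prim2 7.44 and 10.5 FPKM. Pola1, the catalytic subunit of polymerase alpha and the one X-linked gene of the list, had 7.34 and 14.3 FPKM. The polymerase alpha accessory subunit Pola2 had 6.88 and 8.09 FPKM. The catalytic subunits of the leading-strand and lagging-strand polymerases were low, Pole at 2.52 and 5.11 FPKM and Pold1 at 5.60 and 6.66 FPKM. The genes that process lagging-strand fragments were nearly level between the lines: Fen1, the flap nuclease, had 7.79 and 9.06 FPKM, and the ligase Lig1 12.9 and 13.6 FPKM.

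Nucleotide supply held the widest gaps between the lines. Rrm2, the ribonucleotide reductase subunit that limits the enzyme to S phase, had 22.8 FPKM in B6-Xi against 73.0 FPKM in PWK-Xi. Its partner Rrm1 had 23.7 and 31.0 FPKM, so the 2 subunits were level in B6-Xi and Rrm2 was above Rrm1 in PWK-Xi. Tyms, which makes thymidylate from deoxyuridylate, had 12.2 and 39.7 FPKM. Tk1, the thymidine kinase of the salvage route to the same product, was the other way round, with 49.4 FPKM in B6-Xi against 35.6 FPKM in PWK-Xi. In B6-Xi the listed FPKM of Tk1 was thus 4.05 times that of Tyms, while in PWK-Xi Tyms and Tk1 were close.

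Differences between the lines were then put on one scale, the log2 ratio of PWK-Xi to B6-Xi after 1 FPKM was added to each gene's summed level, for genes listed above 0 in each line that reached 5 FPKM in at least 1 of them. This pseudocount understates differences of low genes. The median of these 5241 genes was 0.19, and values are given relative to it. Of the 39 measured genes 35 entered, and Orc1, Cdc6, Mcm10 and Gins3 lay under the minimum. Of the 35, 4 were at least 2-fold higher in PWK-Xi (11.4%), against 10.1% of all genes, so this count is near the background. It depended on the scaling: 10 were past 2-fold, against 18.7% of all genes, when the lines were scaled to the same summed FPKM, and 2, against 8.66%, relative to the same chromosome. None was at least 2-fold lower, against 8.93% of all genes. The values leaned in 1 direction: 29 of the 35 (82.9%) were above the median gene, where 50% of all genes are, and their median was 0.41. The middle 50% of the 35 lay between 0.05 and 0.69, and that of all genes between -0.49 and 0.49. Orc3, Orc4, Orc5 and Pole reached 5 FPKM in PWK-Xi alone, so the filter admitted them through the line where they were higher, while Gins3, higher in B6-Xi, stayed out. With the minimum set on the mean of both lines, an alternative chosen after seeing the data, 26 of 32 were above the median gene and their median was 0.37.

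The 4 genes past 2-fold were Rrm2 at 1.44, Tyms at 1.43, Rfc4 at 1.22 and Pcna at 1.01. Pcna was just inside the threshold, and Orc6, at 0.96, and Orc5, at 0.83, just outside it. At the low end, Rpa1 had -0.82, Tk1 -0.66, Gins2 -0.44, Mcm5 -0.38, Cdt1 -0.15 and Lig1 -0.12, and none of these passed 2-fold. Without centring, Cdt1 (0.04) and Lig1 (0.07) lay on the other side of 0. By role, the median was 0.80 for the 4 nucleotide supply genes, 0.69 for the 6 clamp and clamp loader genes, 0.56 for 5 origin recognition genes, 0.43 for 3 helicase activators, 0.36 for 6 primase and polymerase genes and 0.19 for 5 ring subunits. It was slightly below the median gene for the other roles, with 2 genes each: -0.03 for single-strand binding, -0.04 for licensing factors and -0.06 for the joining of fragments. All 6 clamp and clamp loader genes were above the median gene. Of the origin recognition genes compared, 3 of 5 are among those the filter admitted through PWK-Xi. Whether more cells in S phase or more of these RNAs per cell stood behind a difference cannot be told apart in bulk RNA.

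**Figure D2:**
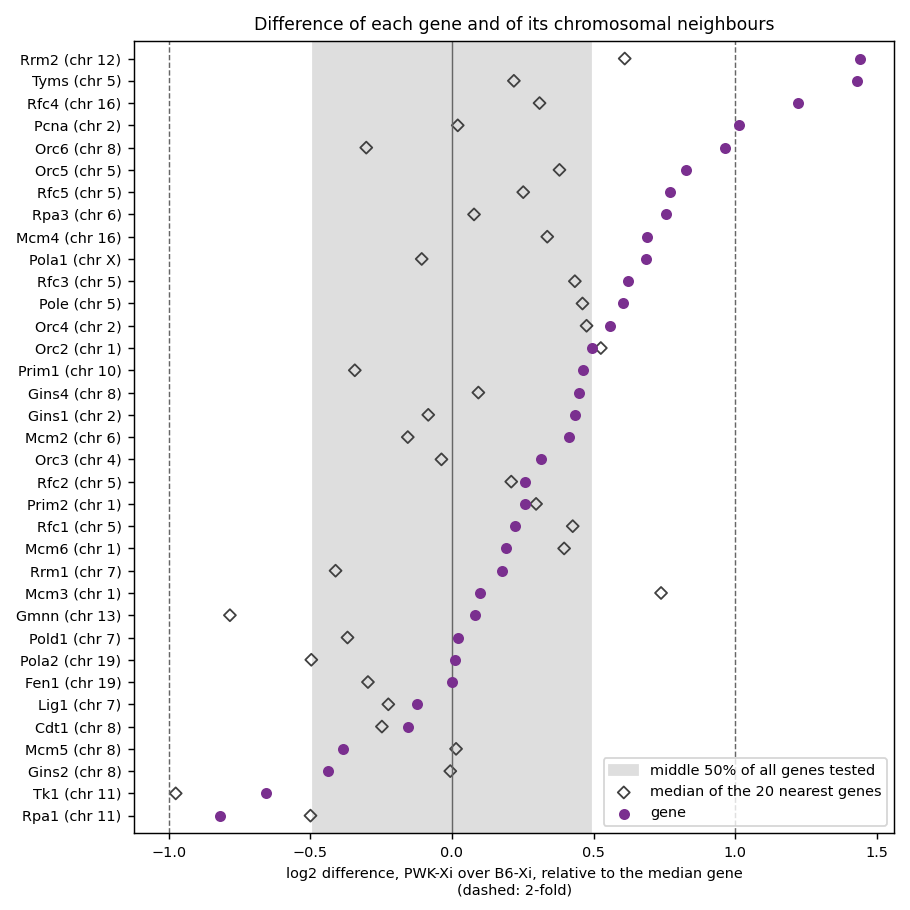
Log2 difference in summed FPKM, PWK-Xi over B6-Xi and relative to the median gene, for the 35 genes that entered (filled points) and, for each, the median of its 20 nearest genes on the chromosome (open diamonds); the grey band holds the middle 50% of all 5241 genes and dashed lines mark 2-fold. Rrm2, Tyms, Rfc4 and Pcna lie beyond 2-fold, and 27 of the 35 genes lie to the right of their own neighbours.

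Chromosomal position moved with some of these differences. The median of the other genes compared was 0.77 on chromosome 12, 0.41 on chromosome 1, 0.34 on chromosome 5, 0.30 on chromosome 16 and -0.45 on chromosome 11. Rrm2 lies on chromosome 12, Tyms on chromosome 5 and Rfc4 on chromosome 16, while Tk1 and Rpa1, the lowest pair, lie on chromosome 11. Each gene was therefore also set against the median of its 20 nearest genes in chromosome order, members left out. Against these neighbours Tyms stayed 1.21 higher and Orc6 became 1.27 higher, and these were the only 2 of 35 past 2-fold, against 8.43% of all genes. Rrm2 was 0.83, Rfc4 0.91 and Pcna 0.99 above its neighbours. Tk1, below the median gene, was 0.32 above its own neighbours, whose median was -0.98, and Gmnn was 0.86 above neighbours at -0.78. Mcm3 was 0.64 below neighbours at 0.74, although its own value was 0.10. In all, 27 of the 35 exceeded their neighbours, against 50.5% of all genes, with a median excess of 0.35. Over the 35 genes the differences of gene and neighbours had a Pearson r of 0.53, a description of genes that share chromosomes and libraries.

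Some of these values rest on reads that other genes can share. In the GENCODE annotation of GRCm38, Pcna has the processed pseudogene Pcna-ps2, 99.2% identical over 781 bases, Rfc5 has Gm12870, 96.2% identical over 1020 bases, and Rrm2 has Gm48455, 95.5% identical over 419 bases. Mcm7, listed at 0, has Gm5487, 97.7% identical over 2157 bases. Exons of 16 of the 43 genes overlap those of another gene, among them Rfc4 with Eif4a2 (194 bases), Orc6 with Vps35 (171 bases), Gins2 with Gse1 (2758 bases), Rfc2 with Lat2 (952 bases) and Tk1 with Afmid (83 bases), each on opposite strands. Whether the libraries kept strand is not stated, so levels and shares of these genes are uncertain. Of the 20 compared genes with neither a copy nor an overlap, 18 were above the median gene and 1, Tyms, was past 2-fold, against 50% and 10.1% of all genes.

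The promoters of these genes carried E2F-type letters more often than other promoters. In the RefSeq promoter table of GRCm38.p6, which spans 250 bases before to 50 bases after each start, 35 of the 43 genes had 43 entries. The words TTTCCCGC, TTTGGCGC, TTTCGCGC and TTTGCCGC were searched on both strands, and matches on opposite strands may overlap. At least 1 was present in 13 of the 43 entries (30.2%), against 2.26% of all 32851 promoters and 4.67% of 3767 promoters whose genes reached 5 FPKM in each line. The CCAAT word stood in 58.1% of the entries, against 37.4% and 40%. The 13 genes were Mcm3, Mcm5, Mcm6, Mcm7, Orc1, Orc3, Cdc6, Cdt1, Gins3, Rfc3, Pola1, Pold1 and Lig1. Of the 4 genes past 2-fold none was among them. The median difference was 0.10 for the 9 of these 13 that were compared and 0.53 for 18 compared genes whose entries held no such word. The former ranged from -0.38 to 0.68 and the latter from -0.82 to 1.44. The part of these words in the differences was not tested. A match is a run of letters and not a site in use, and its absence says only that these letters were not in the window.

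A few promoters are printed as the 160 bases before the start, 5′ to 3′ on the gene's strand in GRCm38.p6, with E2F-type and CCAAT words in capitals. They show 2 ring subunits with paired words, the X-linked Pola1 and the licensing factor Cdc6 with 1 E2F-type word each, and the 2 genes with the widest difference between the lines, which have none.
Mcm6 (chr1:128359706-128359865, minus strand): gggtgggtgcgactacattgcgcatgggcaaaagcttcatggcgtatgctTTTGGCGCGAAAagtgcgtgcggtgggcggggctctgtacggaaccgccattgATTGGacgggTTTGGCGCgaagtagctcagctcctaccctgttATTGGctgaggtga
Mcm5 (chr8:75109349-75109508, plus strand): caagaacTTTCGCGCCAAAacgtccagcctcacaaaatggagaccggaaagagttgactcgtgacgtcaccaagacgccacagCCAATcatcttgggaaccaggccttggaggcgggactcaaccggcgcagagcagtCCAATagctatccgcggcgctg
Pola1 (chrX:93632156-93632315, minus strand): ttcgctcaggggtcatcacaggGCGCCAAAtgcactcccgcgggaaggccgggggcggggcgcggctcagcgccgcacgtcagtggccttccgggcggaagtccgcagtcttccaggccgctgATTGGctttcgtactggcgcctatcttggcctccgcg
Cdc6 (chr11:98907991-98908150, plus strand): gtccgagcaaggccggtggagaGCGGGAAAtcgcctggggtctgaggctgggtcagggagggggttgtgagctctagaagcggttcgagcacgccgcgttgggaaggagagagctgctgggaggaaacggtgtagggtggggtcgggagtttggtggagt
Tyms (chr5:30073626-30073785, minus strand): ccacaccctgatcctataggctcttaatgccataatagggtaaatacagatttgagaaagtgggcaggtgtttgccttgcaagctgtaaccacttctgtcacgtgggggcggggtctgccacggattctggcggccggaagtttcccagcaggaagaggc
Rrm2 (chr12:24708094-24708253, plus strand): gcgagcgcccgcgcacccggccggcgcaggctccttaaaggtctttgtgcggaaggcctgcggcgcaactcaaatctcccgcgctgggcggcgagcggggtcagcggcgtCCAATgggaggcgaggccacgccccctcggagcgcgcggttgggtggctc
In Mcm6 and Mcm5 a pair of E2F-type words overlaps on opposite strands, beginning at -110 and -106 in Mcm6 and at -153 and -149 in Mcm5, counted back from the start. Of the printed genes with an E2F-type word, Mcm6 was at 0.19, Mcm5 at -0.38 and Pola1 at 0.68, and Cdc6 lay under the minimum. Tyms and Rrm2, printed for their wide difference, had 1.43 and 1.44.

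The second readout was the share of the B6 allele. Among the 30 autosomal members that reached 5 FPKM in each line, B6-Xi had a median B6 share of 48.6% and PWK-Xi one of 53.3%, close to the 50.0% and 52.4% of all 3827 autosomal genes. In B6-Xi 10 of the 30 (33.3%) were over 15 percentage points away from that median, against 35.7% of all, and in PWK-Xi 8 (26.7%) did, against 23.8%. These counts are near the background. Between the lines 6 of the 30 (20%) moved by at least 20 points, against 26.8% of all. Shares came in coarse steps, chiefly in B6-Xi. There 8 of 39 members stood within 0.001 points of a simple fraction (denominators up to 10), against 1 of 39 in PWK-Xi, and for all genes with at least 1 FPKM these were 47.1% and 12.8%.

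In PWK-Xi all 8 such members lay on chromosomes 1, 5 and 16, whose other genes had median B6 shares of 70.2%, 36.7% and 41.1%. How many of all genes with such shares lie on these chromosomes was not counted, so this is not read as particular to the members. On chromosome 1, Orc2 had 73.8%, Mcm3 69.4%, Mcm6 69.1% and Prim2 68.5%. On chromosome 5, Rfc1 had 36.1%, Tyms 33.7% and Rfc3 32.4%, and on chromosome 16 Mcm4 had 30.8%. Against the 20 nearest genes none of the 8 was more than 15 points away. The only member that was (3.33%, against 15.6% of all autosomal genes), Rfc5, had 51.8% among neighbours at 36.6%, so it was near the autosomal median on a chromosome that was not. Rfc5 has the pseudogene copy named above, and its exons overlap those of Wsb2 on the opposite strand (499 bases). Rfc2, also on chromosome 5, had 47.7% among neighbours at 38.9%.

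In B6-Xi the picture was mixed. Rrm2 had a B6 share of 0%, as had the median of its neighbours on chromosome 12, and 47.2% in PWK-Xi. Tk1 had 12.0% among neighbours at 19.3% on chromosome 11, and 62.4% in PWK-Xi. Mcm4 (24.4%) and Rfc4 (32.0%), both on chromosome 16, lay within 15 points of neighbours at 34.0% and 38.4%. The other 6 of the 10 were also more than 15 points from their neighbours, which makes 20% of the 30 members, against 26.3% of all autosomal genes. Pold1 had 75% at 5.60 FPKM, Rfc2 73.1%, Orc6 71.9% and Prim2 71.4%, whereas Lig1 had 34.9% and Rpa3 31.8%, with all 6 neighbour medians between 49.1% and 54.5%. In PWK-Xi, none of these 6 was more than 15 points from its neighbours. Orc6, Rfc2 and Lig1 overlap another gene; Pold1, Prim2 and Rpa3 had neither an overlap nor a copy.

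**Figure D3:**
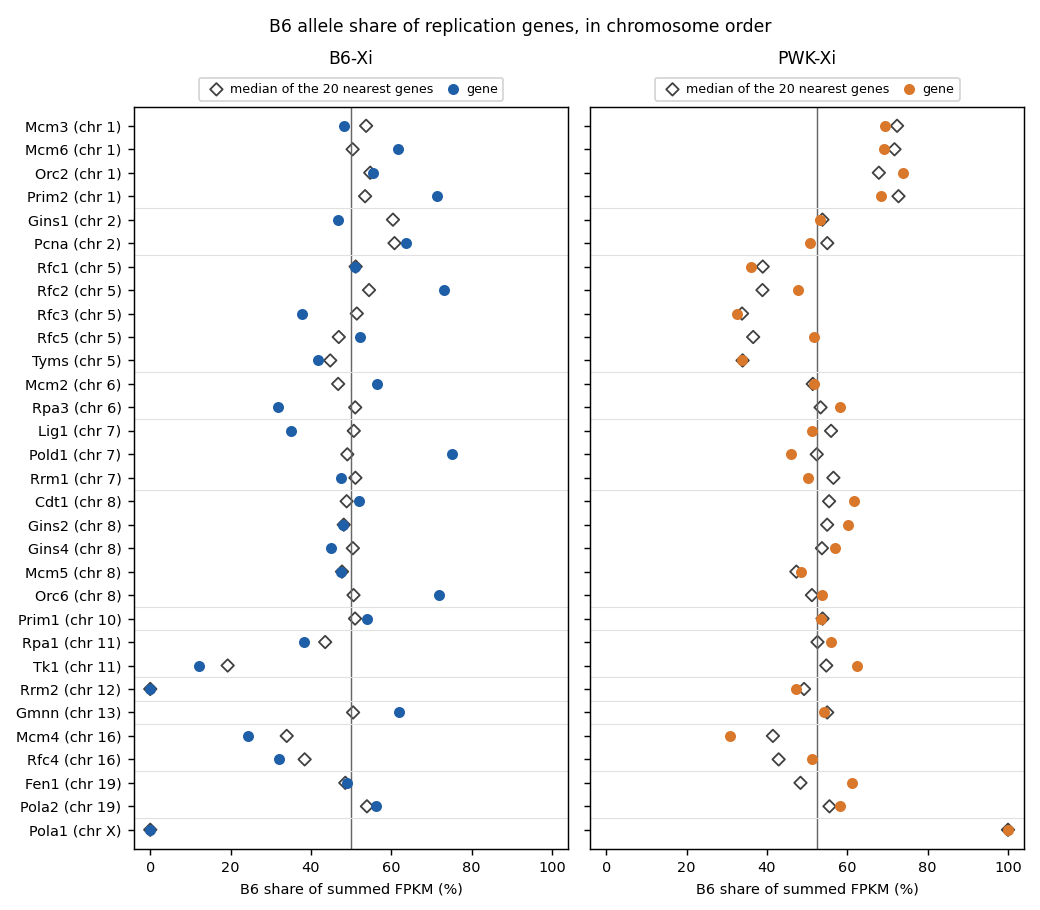
B6 share of summed FPKM (percent) in B6-Xi (left) and PWK-Xi (right) for the 31 members that reached 5 FPKM in each line, in chromosome order, with the median of the 20 nearest genes (open diamonds) and the autosomal median of the line (vertical line). Genes of chromosomes 1 and 5 lie to opposite sides in PWK-Xi, Rrm2 stands at 0% with its neighbours in B6-Xi, and Pola1 passes from 0% to 100%.

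Members followed their neighbours in both lines. Over the 30 genes the Pearson r of a gene's share with its neighbours' median reached 0.77 in B6-Xi and 0.84 in PWK-Xi, and 0.52 and 0.85 without Rrm2 and Tk1, so in B6-Xi those 2 genes carried much of it. The median distance from the neighbours was 5.53 points in B6-Xi and 3.81 in PWK-Xi, against 7.85 and 5.85 over all autosomal genes. These are descriptions of genes that share libraries and chromosomes.

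Pola1, on the X chromosome, came wholly from the active X in both lines, with 7.34 FPKM from PWK in B6-Xi and 14.3 FPKM from B6 in PWK-Xi, and 0 FPKM from the Xi allele in each. Its neighbours had the same medians, 0% and 100%. Because the active copy is of a different strain in each line, the difference of 0.68 in its total level also compares a PWK allele with a B6 allele.

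Read allele by allele, the differences in total level took several forms. Of the 30 autosomal members 19 had both alleles higher in PWK-Xi and 2 had both lower, against 34.1% and 22.2% of all autosomal genes, before any centring. Tyms was of the first form, with 5.11 and 13.4 FPKM from B6 and 7.10 and 26.3 FPKM from PWK in B6-Xi and PWK-Xi. Pcna had 38.2 and 70.9 FPKM from B6 and 21.8 and 68.9 FPKM from PWK, and Rfc4 had 4.28 and 19.1 FPKM from B6 and 9.09 and 18.3 FPKM from PWK. For Rrm2 the PWK allele had 22.8 FPKM in B6-Xi against 38.5 FPKM in PWK-Xi, and the B6 allele 0 and 34.5 FPKM, so most of its added total in PWK-Xi came from the allele listed at 0 in B6-Xi. Tk1 moved in opposite directions, with 5.95 and 22.2 FPKM from B6 and 43.5 and 13.4 FPKM from PWK. Rfc2 kept its B6 level, at 24.6 and 22.2 FPKM, while PWK went from 9.08 to 24.4 FPKM, and Rpa3 kept its PWK level more nearly, at 12.7 and 15.5 FPKM, while B6 went from 5.94 to 21.5 FPKM. Rpa1 and Mcm5 had both alleles lower in PWK-Xi. The sources used here do not say how reads without a strain difference were assigned, and low genes such as Orc5 (0% of 2.66 FPKM) and Mcm10 (0% of 1.30 FPKM) in B6-Xi have uncertain shares.

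Other genes of the pathway differed in both directions. Of 39 further replication genes 24 were compared, with a median of 0.12, 16 above the median gene, 5 (20.8%) at least 2-fold higher and none at least 2-fold lower, against 10.1% and 8.93% of all genes. Highest were the deoxycytidine kinase gene Dck (4.99 and 23.6 FPKM, 1.84), Pole2, the second subunit of polymerase epsilon (1.13 and 5.86 FPKM, 1.49), and Dbf4, the activator of the kinase that fires origins (8.39 and 26.6 FPKM, 1.36). Pole2 lies on chromosome 12 and had a B6 share of 0% in B6-Xi, as Rrm2 did, and Dck and Dbf4 lie on chromosome 5. Rnaseh2b (1.21) and Chaf1b (1.02) also passed 2-fold. Of these 5, Pole2 and Dck reached 5 FPKM in PWK-Xi alone, so the filter admitted them through the line where they were higher. Pold3 and Dscc1 reached it in B6-Xi alone. With the minimum on the mean of both lines 4 of 22 were past 2-fold upwards, against 9.33% of all genes. With a pseudocount of 5 FPKM 2 of 24 were, against 4.69%. Lowest were Dscc1 (7.20 and 4.26 FPKM, -0.84), the nucleoside diphosphate kinase gene Nme1 (496.9 and 333.2 FPKM, -0.77) and the polymerase delta subunit gene Pold4 (25.3 and 16.8 FPKM, -0.76). Nme1 was also the most abundant, with Cks1b (117.6 and 258.3 FPKM, 0.93) and Dctpp1 (53.4 and 68.9 FPKM, 0.17). Cdc7, the kinase that Dbf4 activates, was at 6.70 FPKM in PWK-Xi but listed at 0 in B6-Xi.

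Of 22 E2F, RB and G1/S genes only 7 were compared, with a median of 0.26, 2 of them (28.6%) at least 2-fold higher, against 10.1% of all genes, and none lower by as much. E2f1, an activating E2F gene, had 5.17 and 4.55 FPKM (-0.35), E2f4, a repressing one, 10.7 and 10.9 FPKM (-0.17), and their dimer partner Tfdp1 22.6 and 14.4 FPKM (-0.81). Mybl2, a cell cycle transcription factor, had 1.43 and 8.39 FPKM (1.76), the S-phase kinase Cdk2 5.07 and 13.04 FPKM (1.02), Lin52 3.87 and 8.94 FPKM (0.83) and Lin37 8.39 and 11.9 FPKM (0.26). Mybl2 and Lin52 reached 5 FPKM in PWK-Xi alone, and E2f1 in B6-Xi alone. With the minimum on the mean of both lines 1 of 5 was past 2-fold upwards, against 9.33% of all genes. With a pseudocount of 5 FPKM 0 of 7 were, against 4.69%. The cyclin E genes Ccne1 and Ccne2 reached 11.4 and 3.18 FPKM in PWK-Xi but were listed at 0 in B6-Xi. The same held for E2f6 and Lin9, at 5.05 and 4.44 FPKM in PWK-Xi. Of 20 genes of G2 and mitosis 19 were compared, with a median of 0.08, 11 above the median gene and 1, the cyclin gene Ccnb2 (29.3 and 77.0 FPKM, 1.17), at least 2-fold higher (5.26%, against 10.1%). Bub1, Cenpf and Ttk of this list reached 5 FPKM in PWK-Xi alone. Bub1 (0.83) and Ube2c (48.2 and 87.8 FPKM, 0.66) followed, Plk1 (-0.62), Top2a (-0.50) and Aurkb (-0.45) were lowest, and Birc5 was the most abundant at 105.7 and 101.2 FPKM (-0.26). The lists were not tested against each other, and their order depended on the setting. From the PWK allele alone the medians were 0.50 for 25 replication members, 0.67 for 17 other replication genes and 0.20 for 14 genes of G2 and mitosis. The E2F, RB and G1/S genes left there (2), too few to read, had a median of -0.70. At a minimum of 10 FPKM in either line that list had 0.06 over 4 genes, and the other replication genes had 0.32 over 19.

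**Figure D4:**
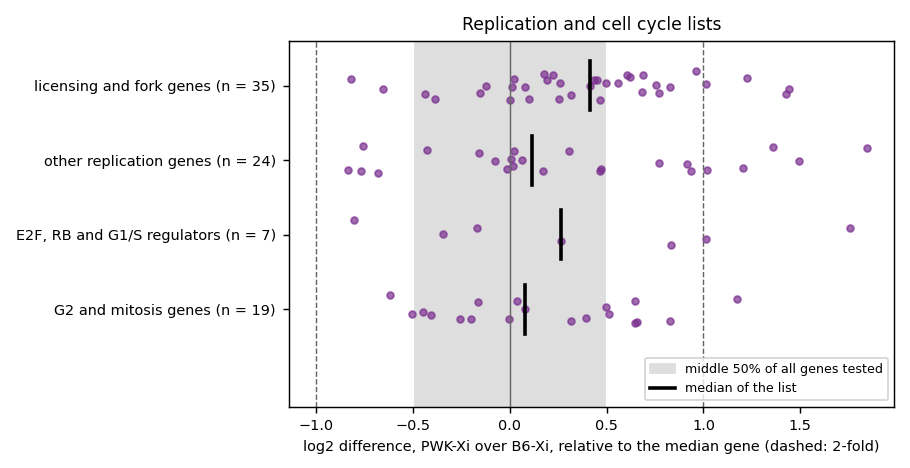
Log2 difference in summed FPKM, PWK-Xi over B6-Xi and relative to the median gene, for each compared gene of 4 lists (points, spread vertically for view), with the list medians as black bars, the middle 50% of all genes as a grey band and 2-fold as dashed lines. List medians are 0.41 for licensing and fork genes, 0.12 for other replication genes, 0.26 for E2F, RB and G1/S regulators and 0.08 for G2 and mitosis genes.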

How the data were processed

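The authors deposited FPKM values of the B6 and PWK alleles for 22711 genes per library, per the file headers. StringTie 2.1.1, HISAT2 2.2.0, Trim Galore 0.6.4 and the build mm9 appear, without roles, in the submitters' processing notes. The assignment of reads to alleles is not given in the sources used, and without counts the depth is unknown. Groups came from the sample titles.

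Alleles were summed. Log2 differences used a pseudocount of 1 FPKM, genes listed above 0 in each line that reached 5 FPKM in at least 1 of them, and centring on the median gene. Shares used no pseudocount and at least 5 FPKM in both lines. Chromosomes and gene order came from GENCODE M21 names (21631 genes), RefSeq symbols (196) and synonyms (789) of GRCm38, and 95 genes stayed unmatched. Neighbours were the 20 nearest non-member genes passing the same filter. Copies were sought with minimap2 2.31-r1302 among GENCODE transcripts (at least 200 aligned bases, 95% identity). Promoters were RefSeq's.

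Every measured gene is given; detail went to the 6 highest and 6 lowest differences, the most skewed shares, X-linked genes and genes at 0, and for other lists to the 3 highest, 3 lowest and 3 most abundant genes. Cdc7, Ccne1, Ccne2, E2f6, Lin9, Rnaseh2b, Chaf1b, Pold3, Cenpf and Ttk were added after their values were seen. The genes and lists were chosen with earlier results of these data known. The scripts, tested on simulated data, ran under Python 3.11.15 with pandas 2.3.3, numpy 2.4.6, scipy 1.17.1 and matplotlib 3.10.9.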

Additional observations from a re-analysis of the deposited data

How the results depend on the processing

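No paired analysis was possible because there was 1 library per group. Without replicates or counts, medians were taken as unmoved within 0.1 (log2) or 5 percentage points, and counts within 1.5 times. No member passed 2-fold downwards in any setting except with the PWK allele alone, where 2 of 25 did (Tk1 and Rpa1), against 13.8% of all genes. The count of 4 past 2-fold upwards became 10 (against 18.7% of all genes) when the lines were scaled to the same summed FPKM and 2 (8.66%) against the same chromosome. The members' median of 0.41 stayed above 0 in every setting run and became 0.28 with a pseudocount of 5 FPKM, 0.61 without centring, 0.76 scaled to the same summed FPKM and 0.27 against the same chromosome. Members with a skewed share in PWK-Xi, 8 in the main setting, numbered 4 of 21 at a minimum of 10 FPKM (against 22.8% of all genes), 0 of 30 beyond 25 points (6.66%) and 1 of 30 against the same chromosome (15.8%), and in B6-Xi the count of 10 became 4 of 30 beyond 25 points (17.7%). The neighbour, sequence-sharing and mean-minimum settings were chosen after seeing the data. Against the 20 nearest genes, 2 members were past 2-fold upwards (against 8.43% of all genes). On the same footing 6 of 30 had skewed shares in B6-Xi (20%, against 26.3% of all autosomal genes). In PWK-Xi 1 of 30 did (3.33%, against 15.6%). Without the genes that share sequence with another, 1 of 20 was past 2-fold upwards (against 10.1% of all genes) and the median was 0.29. Of the 18 members then left with a share, 4 had skewed shares in B6-Xi (22.2%, against 35.7% of all) and 7 in PWK-Xi (38.9%, against 23.8%). Single members kept their sign in 28 of 35 cases against the same chromosome and 27 of 35 against the 20 nearest genes. Smaller counts under stricter minimums follow in part from fewer genes entering; for the rest the cause was not tested. With unknown depth, small differences of genes under 5 FPKM cannot be judged.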
